A study of Mus musculus with 2 samples.

Results

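The genes described here make up the tumor necrosis factor (TNF) system: the ligands of the TNF superfamily, their receptors, the TRAF adaptor proteins, and the TNFAIP and TNIP genes, which are named for induction by TNF or for binding the A20 protein. Members were chosen by gene symbol. The symbol rule uses no measured value, but it was set with earlier results of these data known. Of the 34295 genes listed, 62 matched: 18 ligands, 26 receptors, 7 TRAF genes and 11 TNFAIP or TNIP genes. Poly(A) RNA came from wild-type C57BL/6J mouse cells of 2 kinds, with 1 library of each. The first library held embryonic fibroblasts (MEF) from E13.5-E14.4 embryos without head and red tissue, sorted to be negative for CD45, CD11b and F4/80, used at passage 4 to 7 in complete DMEM with 10% serum, and collected from 100000 cells. The second held bone marrow derived macrophages (BMDM) grown for 6 days in macrophage growth medium (MGM) with 10% serum and 30% L929-conditioned medium, then plated at 750000 cells. No TNF or other stimulus is named for either culture, and the labels do not say how many embryos or adult mice were used.

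TNF family ligands are mostly made as trimeric proteins in the cell membrane, and several are cut free to act at a distance. Their receptors carry cysteine-rich repeats outside the cell. Inside, some bind TRAF proteins, which lead to NF-kB and MAP kinase signalling, and others carry a death domain that can also start apoptosis or necroptosis. Macrophages are known as a main source of TNF, and fibroblasts as cells that respond to it.

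Values are transcripts per 1000000 (TPM), which correct for transcript length and sum to 999545 for MEF and 999609 for BMDM. With 1 library per cell type there is no replicate error, no test and no p-value, and TPM keep no read depth, so no interval can be given. Each difference describes these libraries, and cell type cannot be told apart from medium, cell number and preparation. In bulk RNA, fewer cells expressing a gene and less RNA per cell cannot be told apart either. The word called is kept for genes that differed at least 4-fold after 1 was added to each TPM, with 5 TPM or more in the higher library. Log2 ratios are of fibroblast over macrophage TPM plus 1, so that negative values lie toward macrophages, and the added 1 pulls low genes toward 0. Stated folds divide the higher TPM by the lower, with nothing added. Where a gene is listed at 0 no fold or ratio is printed.

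The libraries carried the markers of their labels. Of 19 macrophage markers all 19, and of 20 fibroblast markers all 20, were higher in the library so labelled. The sort genes Ptprc (CD45), Itgam (CD11b) and Adgre1 (F4/80) stood at 0.352, 0.483 and 0.457 TPM in the fibroblast library and at 142, 303 and 399 in the macrophage library. Macrophage markers appeared in the fibroblast library at a median of 0.131% of their macrophage level, and fibroblast markers in the macrophage library at 0.165%. Neutrophil genes were present in the macrophage library, where 4 of 7 were called, with a summed level of 484 TPM against 1.93 in MEF. Most of that sum was S100a9 and S100a8, at 268 and 157 TPM in BMDM. Ngp stood at 48.3 TPM there, Camp at 5.17, Mpo at 2.83 and Elane at 2.34. Ly6g was listed at 0 in both libraries. Summed levels in BMDM and MEF were 8.45 and 1.25 TPM for dendritic cell, 0.408 and 0.792 for NK cell, 35.7 and 6.97 for endothelial and 0.647 and 1.41 for epithelial markers.

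Of the 62 members, 48 reached 1 TPM in at least 1 library and 40 reached 5 TPM. Called members numbered 24, of which 16 were higher in BMDM and 8 in MEF. As shares of the members at 5 TPM these are 60.0% in all, 40.0% toward macrophages and 20.0% toward fibroblasts. Among the 11191 genes at 5 TPM or more, 23.1% were called, 8.77% toward macrophages and 14.3% toward fibroblasts. Genes expressed in 1 library alone enter such a count only because they differ, so these shares are descriptions. The members' summed level was nearly equal in both libraries, at 1572 TPM in MEF and 1544 in BMDM, while its make-up differed.

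**Figure D1:**
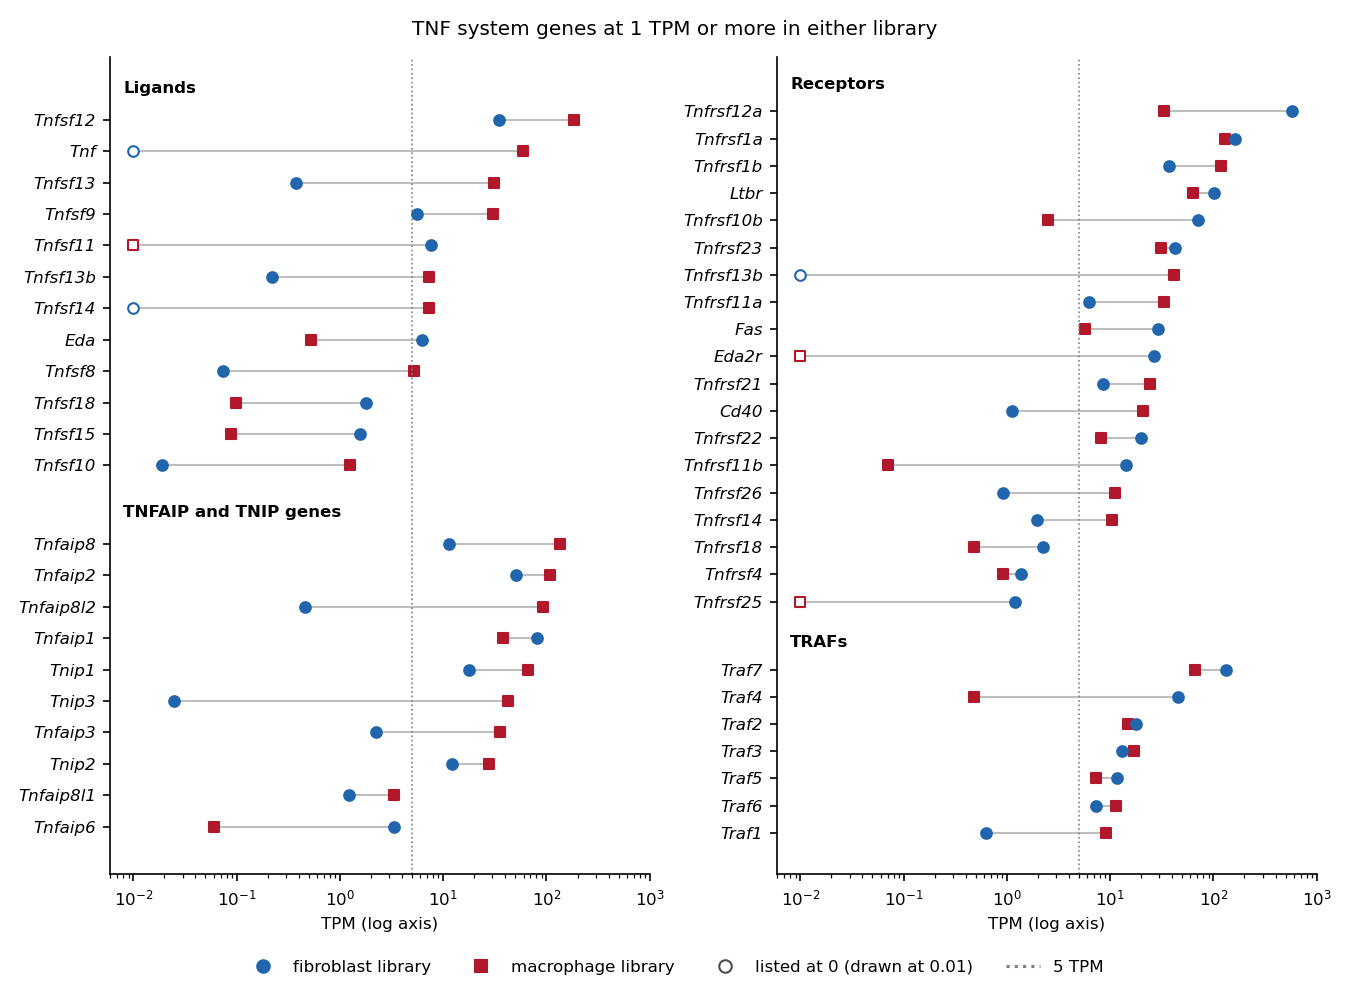
TPM (log axis) of the 48 members at 1 TPM or more in either library, by role; blue circles are the fibroblast and red squares the macrophage library, open symbols are values listed at 0 and drawn at 0.01, and the dotted line marks 5 TPM. The symbols lie far apart for Tnf, Tnfrsf13b, Eda2r, Traf4, Tnip3 and Tnfaip8l2, and close together for Tnfrsf1a, Ltbr, Tnfrsf23 and Traf2.

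The ligands lay mostly on the macrophage side. Of 18 ligand genes, 7 were higher in BMDM, 2 were higher in MEF, and 9 stayed below 5 TPM in both libraries. All 9 ligands at 5 TPM were thus called, 77.8% toward macrophages and 22.2% toward fibroblasts. Among all genes at 5 TPM the shares were 8.77% and 14.3%. Over the 12 ligands at 1 TPM or more the median log2 ratio was -2.31, beside 0.28 over all 13606 genes so detected. Summed over the list, ligand transcripts came to 58.7 TPM in MEF and 329.6 in BMDM. Tnfsf12 made up 59.7% of that sum in MEF and 56.6% in BMDM.

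Tnf itself, the founding cytokine of the family, stood at 59.1 TPM in BMDM and was listed at 0 in MEF. No other ligand that BMDM expressed at over 10 TPM was listed at 0 in MEF. Its close relatives Lta and Ltb, which encode the lymphotoxins typical of lymphocytes, were at 0.0757 and 0.830 TPM in BMDM and at 0 and 0.119 in MEF. The 3 genes lie beside each other on chromosome 17 between 35194439 and 35205351 (GRCm38), with 3061 bases between Ltb and Tnf and 1158 between Tnf and Lta. Within this cluster only Tnf passed 1 TPM, and only in the macrophage library. T cell markers were low beside it. Of 8, 1 was called, Cd28 at 23.9 TPM in BMDM. Lck stood at 1.85 TPM in BMDM and 0.282 in MEF, and Trac at 0 in BMDM and 4.02 in MEF. Cd3e, Cd3d and Cd3g were all under 0.3 TPM in both libraries.

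Tnfsf12 encodes TWEAK, a ligand linked to tissue repair, and was the most abundant ligand in both cell types. It stood at 187 TPM in BMDM and 35.1 in MEF, a 5.32-fold difference with a log2 ratio of -2.38. Tnfsf13 encodes APRIL, a factor for B cells and plasma cells, and stood at 31.1 TPM in BMDM and 0.379 in MEF. These genes are neighbours on the minus strand of chromosome 11, 466 bases apart, and another gene, Tnfsfm13, runs through both from 69682577 to 69696098. Tnfsfm13, a membrane-bound form that joins parts of both and is no member by the symbol rule, stood at 63.0 TPM in BMDM and 4.27 in MEF. Of the 31-base words of Tnfsf12 transcripts 47.4% also occur in Tnfsfm13, and of those of Tnfsf13 58.4%, so the division of reads among the 3 genes is uncertain. Adding Tnfsfm13 to each gave log2 ratios of -2.64 for Tnfsf12 and -4.07 for Tnfsf13. Since Tnfsfm13 was itself higher in BMDM, this addition could not reverse either direction and does not settle the division of reads.

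The remaining ligands higher in BMDM were lower in level. Tnfsf9, encoding the T cell costimulator 4-1BBL, stood at 30.3 TPM in BMDM and 5.59 in MEF, with a log2 ratio of -2.25. It shares 14.9% of its exon bases with the antisense gene Gm11110, and whether the counting used strand is not given in the sources used here. Tnfsf13b, encoding the B cell survival factor BAFF, stood at 7.31 TPM against 0.219 in MEF. Tnfsf14, encoding LIGHT, stood at 7.23 TPM in BMDM and was listed at 0 in MEF. Tnfsf8, encoding the CD30 ligand, stood at 5.21 TPM against 0.0744, just above the 5 TPM minimum. Neutrophil genes were present in the same library at the summed level given above, and their part in these values was not tested. Tnfsf9, Cd70 and Tnfsf14 form a second cluster on chromosome 17, with gaps of 38240 and 39715 bases, and Cd70 between them was listed at 0 in both libraries.

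In fibroblasts the called ligands were Tnfsf11 and Eda. Tnfsf11 encodes RANKL, the factor that drives osteoclast formation, and stood at 7.55 TPM in MEF and was listed at 0 in BMDM. Eda encodes ectodysplasin, which directs hair follicle and tooth development, and stood at 6.30 TPM in MEF and 0.529 in BMDM, with a log2 ratio of 2.25. Both values are near the minimum. Below it were Tnfsf18 (GITR ligand) at 1.79 TPM and Tnfsf15 (TL1A) at 1.56 in MEF, against 0.0977 and 0.0881 in BMDM. Tnfsf10, encoding the death ligand TRAIL, reached 1.25 TPM in BMDM and 0.0189 in MEF. Fasl, Tnfsf4, Cd40lg, Cd70, Lta and Ltb were below 1 TPM in both libraries. With 5 in place of 1 added to each TPM, Tnf, Tnfsf12 and Tnfsf13 were the 3 ligands still called.

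**Figure D2:**
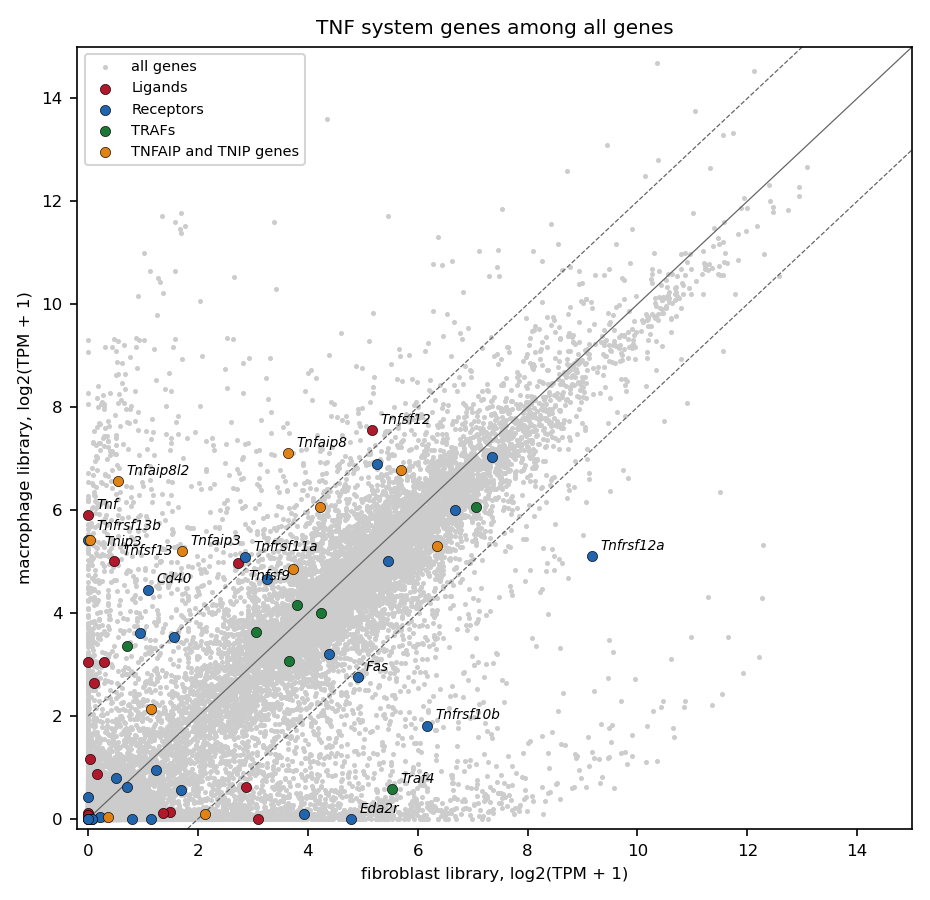
Each gene's log2(TPM + 1) in the fibroblast library (x axis) and the macrophage library (y axis), all genes in grey and the 62 members coloured by role; the solid line marks equal values and the dashed lines 4-fold differences. Called members at 20 TPM or more are named: Tnf, Tnfsf13 and Tnfrsf13b sit near the left edge, and Tnfrsf12a, Tnfrsf10b, Traf4 and Eda2r below the lower dashed line.

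The receptors were divided between the cell types. Of 26 receptor genes, 5 were higher in MEF, 4 in BMDM, 7 reached 5 TPM without being called, and 10 did not reach it. Of the 16 at 5 TPM, 31.25% were called toward fibroblasts and 25.0% toward macrophages. Among all genes at 5 TPM the shares were 14.3% and 8.77%. The median log2 ratio over the 19 detected receptors was 0.44, beside 0.28 over all detected genes. Receptor transcripts summed to 1105 TPM in MEF and 536 in BMDM, and 1 gene, Tnfrsf12a, made up 52.1% of the fibroblast sum and 6.26% of the macrophage sum.

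Both receptors for TNF were expressed in both cell types. Tnfrsf1a, the widely expressed death domain receptor TNFR1, stood at 161 TPM in MEF and 129 in BMDM, a 1.25-fold difference. Tnfrsf1b, encoding TNFR2, which lacks a death domain, stood at 37.4 TPM in MEF and 118 in BMDM, with a log2 ratio of -1.63, short of the 4-fold limit. Tnfrsf1a was thus the higher of the pair in each library, by a wider margin in MEF. Ltbr, the lymphotoxin beta receptor, lies 35477 bases from Tnfrsf1a on chromosome 6 and stood at 101 TPM in MEF and 63.2 in BMDM. Cd27, a lymphocyte receptor gene 69561 bases beyond Ltbr on its other side, was below 1 TPM in both libraries.

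Tnfrsf12a, encoding the TWEAK receptor Fn14, was the highest member of all. It stood at 576 TPM in MEF, where it ranked 268 among the 12561 genes at 1 TPM or more, and at 33.6 TPM in BMDM, where it ranked 4109 among 11429. The difference was 17.2-fold, with a log2 ratio of 4.06, opposite in direction to that of its ligand gene Tnfsf12. The gene lies on the minus strand of chromosome 17 from 23675445 to 23677468, and none of its 31-base words is shared with another gene.

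Among the receptors linked to cell death, Tnfrsf10b and Fas were called, both toward fibroblasts. They were 2 of the 4 death domain receptors that reached 5 TPM. The share called toward fibroblasts among all genes at 5 TPM was 14.3%. With so few genes, their shared direction describes these genes and not the class. Tnfrsf10b, encoding the TRAIL receptor of the mouse, stood at 71.1 TPM in MEF and 2.51 in BMDM, a 28.3-fold difference. Fas, the receptor of Fas ligand, stood at 29.0 TPM in MEF and 5.72 in BMDM, with a log2 ratio of 2.16 that became 1.99, below the limit, under median-of-ratios scaling. The other 4 of the 6 receptors listed with a death domain, Tnfrsf1a included, were not called. Tnfrsf21 (death receptor 6) stood at 8.55 TPM in MEF and 24.3 in BMDM, and Tnfrsf25 (death receptor 3) at 1.19 TPM in MEF and 0 in BMDM. Edar was below 1 TPM in both. The ligands of the called receptors were low: Tnfsf10 did not exceed 1.25 TPM and Fasl 0.0506 TPM in either library.

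Of 3 decoy receptors, which bind ligand without signalling, 1 was called, toward fibroblasts. That is 33.3% of those at 5 TPM, beside 23.1% of all genes. Tnfrsf11b encodes osteoprotegerin, a secreted decoy for RANKL, and stood at 14.3 TPM in MEF and 0.0703 in BMDM, with a log2 ratio of 3.83. Tnfrsf23 and Tnfrsf22, membrane decoys for TRAIL in the mouse, stood at 42.9 and 19.8 TPM in MEF and at 31.4 and 8.22 in BMDM, and neither was called. Their neighbour Tnfrsf26 on chromosome 7 was higher in BMDM, at 11.2 TPM against 0.919. Tnfrsf22 shares 25.5% of its 31-base words with Tnfrsf23, and Tnfrsf23 shares 26.6% with Tnfrsf22, so the division between these 2 genes is uncertain. Tnfrsf26 shares 3.83% with any other gene.

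Eda2r, an ectodysplasin receptor, stood at 26.6 TPM in MEF and was listed at 0 in BMDM. It binds the A2 form of ectodysplasin, which the gene-level values do not separate from the A1 form. The receptor of the A1 form, Edar, was at 0.156 TPM in MEF. Tnfrsf18 and Tnfrsf4, receptors on T cells for GITR ligand and OX40 ligand whose genes lie 9552 bases apart on chromosome 4, stood at 2.22 and 1.36 TPM in MEF and at 0.481 and 0.924 in BMDM. Tnfrsf18 shares 27.2% of its exon bases with the antisense gene Gm16008.

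The receptors higher in BMDM included genes best known from other blood cells. Tnfrsf13b, encoding TACI, a receptor for BAFF and APRIL on B cells, stood at 41.7 TPM in BMDM and was listed at 0 in MEF. The other receptors for these ligands were lower: Tnfrsf13c (BAFF receptor) was at 0 TPM in BMDM and 0.0515 in MEF, and Tnfrsf17 (BCMA) at 0 in both. Of 6 B cell markers, 1 reached 1 TPM, Cd79b at 3.66 in BMDM. Their summed level was 4.42 TPM in BMDM and 0.191 in MEF, with Pax5 at 0.0239 TPM in BMDM and at 0 in MEF.

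Tnfrsf11a encodes RANK, the receptor through which RANKL turns macrophage precursors into osteoclasts. It stood at 33.0 TPM in BMDM and 6.22 in MEF, with a log2 ratio of -2.23. Of 7 osteoclast markers none was called toward macrophages, where their sum was 13.2 TPM, and Calcr was listed at 0. Of the 5 markers detected, 3 had higher values in BMDM and 2 in MEF. Those higher in BMDM included Atp6v0d2, at 4.81 TPM against 0.528, and Dcstamp, at 1.22 against 0.0982. Ctsk, which fibroblasts also express, was called toward the fibroblast library at 153 TPM against 2.26. Cd40, the receptor for T cell help, stood at 20.9 TPM in BMDM and 1.13 in MEF, an 18.6-fold difference. Tnfrsf14 (HVEM), a receptor for LIGHT, stood at 10.5 TPM in BMDM and 1.97 in MEF, and its log2 ratio of -1.96 was just short of the limit. It passed under median-of-ratios scaling, at -2.10. Tnfrsf8, Tnfrsf9 and Tnfrsf19 were below 1 TPM in both libraries.

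The log2 ratios just inside the limit of 2 among the receptors were thus those of Fas and Tnfrsf11a, and the one just outside that of Tnfrsf14. With 5 added to each TPM, Fas, Tnfrsf11b, Tnfrsf11a and Tnfrsf26 were no longer called, while Tnfrsf12a, Tnfrsf10b, Eda2r, Tnfrsf13b and Cd40 were.

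Ligand and receptor transcripts were then set side by side for 30 known pairs, which cover all 18 ligands and 23 of the receptors. A pair counts as expressed where both genes reached 5 TPM. Of the 30, 20 were expressed in no combination of libraries, and 10 in at least 1. With the ligand in BMDM, 4 pairs had the receptor in MEF and 7 had it in BMDM. With the ligand in MEF, 2 pairs had the receptor in BMDM and 4 had it in MEF. Only transcripts were measured, so the pairs say nothing of protein or of signalling.

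**Figure D3:**
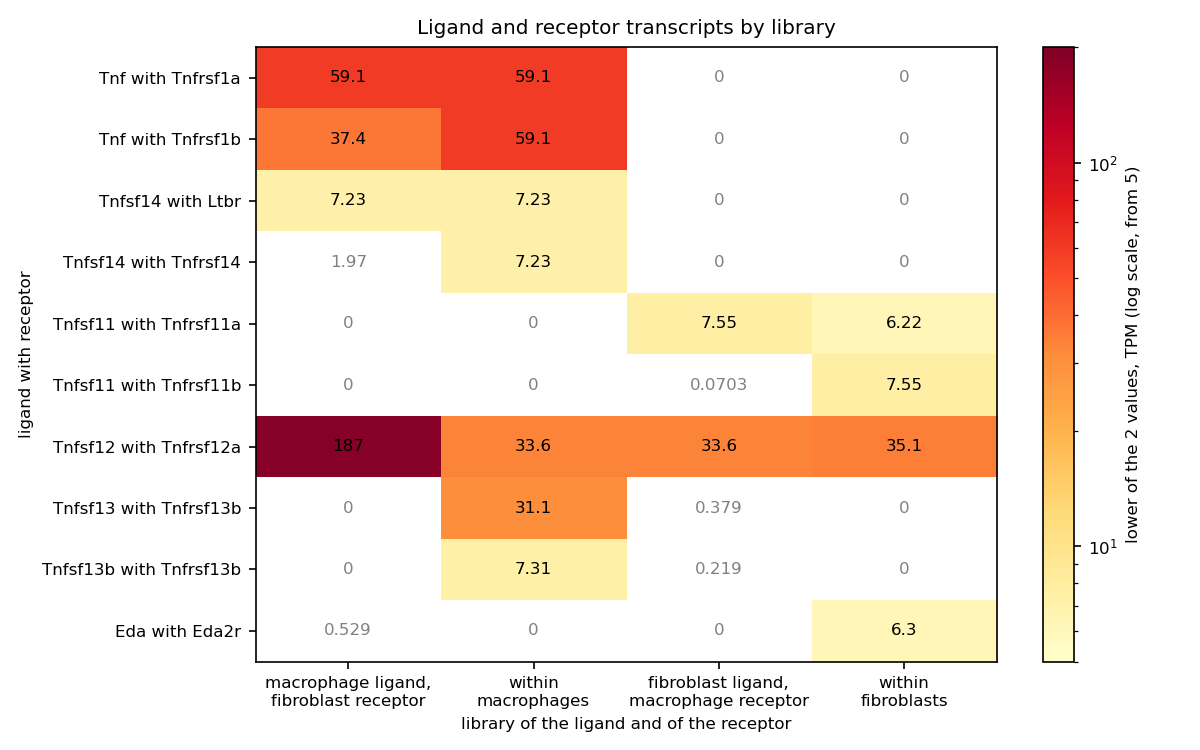
Lower of the ligand and receptor values in TPM (colour on a log scale from 5) for the 10 pairs expressed in at least 1 combination of libraries (columns); grey numbers are below 5. Tnfsf12 with Tnfrsf12a fills all 4 columns, the Tnf pairs the columns with a macrophage ligand, and Tnfsf11 with Tnfrsf11a those with a fibroblast ligand, while Tnfsf11 with Tnfrsf11b is coloured only within fibroblasts.

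The TNF pairs began with macrophages alone. Tnf with Tnfrsf1a joined 59.1 TPM of ligand in BMDM to 161 of receptor in MEF and 129 in BMDM, and Tnf with Tnfrsf1b to 37.4 and 118. Tnfsf14 with Ltbr had the same layout, at 7.23 TPM of ligand. The pairs of Tnfsf14 with Tnfrsf14, and of Tnfsf13 and Tnfsf13b with Tnfrsf13b, were expressed within BMDM alone. Among the 10 expressed pairs, 6 had their ligand at 5 TPM in BMDM only, and 3 in MEF only.

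The RANKL system was spread over both libraries. The ligand gene Tnfsf11, at 7.55 TPM, and the decoy gene Tnfrsf11b, at 14.3 TPM, were in the fibroblast library. The signalling receptor gene Tnfrsf11a was in both, and 5.30-fold higher in BMDM. Tnfsf11 with Tnfrsf11a therefore counted from fibroblast to macrophage and within MEF, where the receptor at 6.22 TPM only just passed. Eda with Eda2r was expressed within MEF alone. Tnfsf12 with Tnfrsf12a was the 1 pair expressed in all 4 combinations, and both genes reached their highest value when a macrophage ligand, at 187 TPM, was set against a fibroblast receptor, at 576.

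Among the TRAF adaptors, 1 gene was called in each direction. Of 7 genes, all 7 reached 5 TPM in at least 1 library, and 5 did so in both. The called share was 28.6%, close to the 23.1% of all genes. The median log2 ratio was 0.24. Traf4, an adaptor with roles in development and cell junctions, stood at 45.2 TPM in MEF and 0.486 in BMDM, a 93.2-fold difference. Traf1, a gene induced through NF-kB in immune cells, stood at 9.20 TPM in BMDM and 0.626 in MEF, with a log2 ratio of -2.65, and was no longer called with 5 added to each TPM or with a minimum of 10 TPM. The adaptors used by most TRAF-binding receptors were close: Traf2 stood at 17.9 TPM in MEF and 14.9 in BMDM, Traf3 at 13.0 and 16.9, Traf5 at 11.6 and 7.34, and Traf6 at 7.33 and 11.4. Traf7, which lacks the TRAF domain that binds receptors, had the highest level, at 132 TPM in MEF and 65.9 in BMDM.

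Of the 10 TNFAIP and TNIP genes detected, 8 had higher values in BMDM and 2, Tnfaip1 and Tnfaip6, in MEF. Of 11 genes, 4 were called, all toward macrophages, 4 more reached 5 TPM without being called, and 3 did not reach it. The median log2 ratio over the 10 detected was -1.48. These genes share a name for how they were found and are not a single protein family.

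The feedback protein A20 and its binding partners are encoded by Tnfaip3 and the Tnip genes. A20 edits ubiquitin chains and limits NF-kB signalling from TNF receptors, and the Tnip products bind A20 and ubiquitin. Tnfaip3 stood at 35.8 TPM in BMDM and 2.25 in MEF, a 15.9-fold difference. Tnip3 stood at 42.1 TPM in BMDM and 0.0251 in MEF, with a log2 ratio of -5.39. Tnip1 stood at 65.9 TPM in BMDM and 17.7 in MEF, and Tnip2 at 27.8 and 12.2. The log2 ratio of Tnip1, -1.84, did not pass the limit, and became -2.01 under median-of-ratios scaling. All 4 genes were thus higher in value in BMDM, over a range from 2.27-fold for Tnip2 upward.

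The promoters of Tnfaip3, Tnip1 and Tnip3 are shown as picked examples. These 3 A20-related genes had higher values in BMDM, and their upstream bases hold matches to the NF-kB consensus. Other members with a match lay in either direction. Tnfaip2 stood at 109 TPM in BMDM and 50.8 in MEF, and Tnfrsf25 at 0 and 1.19. Each sequence gives the 250 bases before a transcript start from RefSeq (GRCm38.p6), 5′ to 3′ on the gene's strand, with the matches, on either strand, in capitals. The windows are chr10:19015411-19015660 on the minus strand for Tnfaip3, chr11:54962941-54963190 on the minus strand for Tnip1 and chr6:65590148-65590397 on the plus strand for Tnip3. In GENCODE M21 the Tnfaip3 gene begins upstream at 19015657, and the Tnip3 gene spans 65525313 to 65634040. Nearly all of the Tnfaip3 stretch and all of the Tnip3 stretch thus lie inside these annotated genes. The Tnip1 stretch lies outside its gene, which begins at 54962917.
Tnfaip3: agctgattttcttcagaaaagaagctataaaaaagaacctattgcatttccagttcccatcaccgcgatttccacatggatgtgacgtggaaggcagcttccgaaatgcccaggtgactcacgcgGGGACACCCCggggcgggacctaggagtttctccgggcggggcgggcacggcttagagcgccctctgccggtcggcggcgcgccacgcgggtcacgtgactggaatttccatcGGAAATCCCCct
Tnip1: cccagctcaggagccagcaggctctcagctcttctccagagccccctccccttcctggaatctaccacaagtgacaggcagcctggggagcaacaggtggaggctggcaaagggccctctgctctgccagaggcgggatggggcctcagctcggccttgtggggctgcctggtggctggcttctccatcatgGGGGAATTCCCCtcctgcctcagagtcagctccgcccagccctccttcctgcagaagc
Tnip3: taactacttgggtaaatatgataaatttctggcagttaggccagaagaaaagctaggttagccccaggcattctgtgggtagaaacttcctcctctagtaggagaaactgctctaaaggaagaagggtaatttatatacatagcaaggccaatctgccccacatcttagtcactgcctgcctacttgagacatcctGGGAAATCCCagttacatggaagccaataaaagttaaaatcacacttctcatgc

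Counted with the first transcribed base as 0, matches begin at -125 and -12 in Tnfaip3, at -58 with overlapping matches in Tnip1, and at -54 in Tnip3. The window of the other listed start of Tnfaip3 holds no match. In windows of 300 bases, 250 before and 50 after the start, 2779 of 32851 RefSeq windows (8.46%) held a match. Among the members' own windows it was 10 of 56 (17.9%). These windows belong to 51 member genes, and the 10 with a match were from different genes: besides the 3 shown, Tnfaip2, Tnfaip8l1, Traf3, Ltb, Tnfrsf8, Tnfrsf9 and Tnfrsf25. Of these 10 genes only Tnfaip3 and Tnip3 were called, and Tnf, which was called, had no match in its window. A match describes letters only, and binding was not measured.

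The Tnfaip8 family, whose products carry lipids and shape immune signalling, had 2 called genes of 4, both toward macrophages. Among all genes at 5 TPM 8.77% were called toward macrophages. The family's uncalled genes did not reach 5 TPM. Tnfaip8 stood at 136 TPM in BMDM and 11.5 in MEF, an 11.9-fold difference. It shares 12.7% of its exon bases with an antisense gene, C030005K06Rik. Tnfaip8l2, encoding TIPE2, a brake on immune cell activation, stood at 93.7 TPM in BMDM and 0.464 in MEF, with a log2 ratio of -6.02. Tnfaip8l1 stood at 3.36 TPM in BMDM and 1.22 in MEF, and Tnfaip8l3 was below 1 TPM in both.

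The other Tnfaip genes were expressed in both cell types or lay toward fibroblasts. Tnfaip2 stood at 109 TPM in BMDM and 50.8 in MEF, and Tnfaip1, an adaptor for ubiquitin ligases, at 38.2 and 80.3. Tnfaip6 encodes TSG-6, a secreted hyaluronan-binding protein, and stood at 3.36 TPM in MEF and 0.0602 in BMDM. Its log2 ratio of 2.04 passed the 4-fold limit, but its level did not reach 5 TPM.

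Most genes of the signalling steps below the receptors and of ligand release were expressed in both cell types. Of 51 genes in these lists, 7 of them for ligand shedding, 49 reached 5 TPM and 41 did so in both libraries. Called genes numbered 6, with 3 of them in the shedding list, which is 12.2% of those at 5 TPM, beside 23.1% of all genes. The median log2 ratio was -0.50 over the 50 detected.

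**Figure D4:**
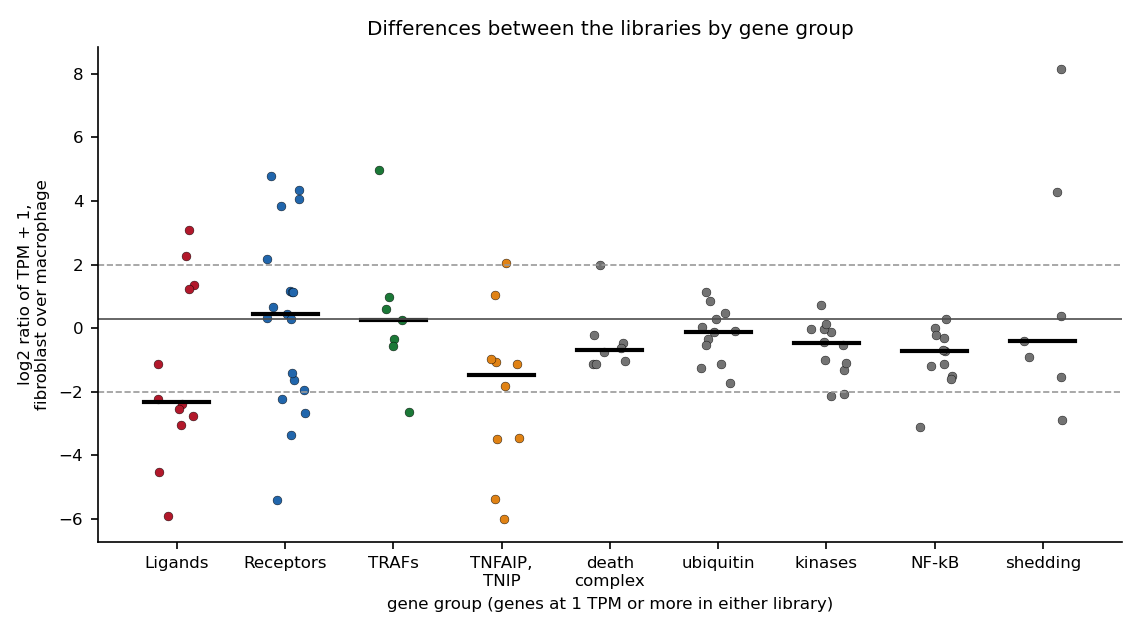
Log2 ratio of TPM + 1, fibroblast over macrophage, of each gene at 1 TPM or more in either library, by group; black bars are group medians, the grey line is the median of all detected genes (0.28) and dashed lines mark 4-fold. Ligands (median -2.31) and TNFAIP and TNIP genes (median -1.48) reach furthest below the dashed line, whereas the ubiquitin genes (median -0.11) lie within both limits.

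Of the death complex genes, which carry the signal from receptor to caspase or necroptosis, none of 9 was called, and the median log2 ratio was -0.69. The adaptor genes Tradd and Fadd stood at 20.9 and 7.31 TPM in MEF and 24.6 and 10.5 in BMDM. The highest of the list were Casp8, at 37.4 TPM in MEF and 82.6 in BMDM, and Ripk3, the necroptosis kinase gene, at 76.7 and 18.7. The log2 ratio of Ripk3, 1.98, was just short of the limit. Of 12 genes of the ubiquitin step, none was called, with a median of -0.11. The 2 highest were Rnf11 at 93.7 TPM in MEF and 42.5 in BMDM, and Tax1bp1 at 75.3 and 80.8.

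Among the kinases, 2 of 12 were called, both toward macrophages, with a median of -0.48. The called share of those at 5 TPM was 18.2%. Among all genes at 5 TPM 23.1% were called, 8.77% toward macrophages. The called kinase genes were Ikbke, which is IKK-related, at 49.7 TPM against 11.1 in MEF, and the stress kinase gene Map3k5 at 9.01 against 1.28. Of the 11 NF-kB subunits and inhibitors, 1 was called, Nfkbid at 11.8 TPM in BMDM and 0.489 in MEF, and the median was -0.72. That is 9.09% of those at 5 TPM, again below the share of all genes called. Nfkb1 and Rela, which form the classical NF-kB dimer, stood at 51.9 and 45.4 TPM in BMDM and 31.1 and 38.9 in MEF.

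Ligand shedding was the pathway list with the most called genes. Of 7 genes, 2 were higher in MEF and 1 in BMDM. These make up 42.9% of the list, beside 23.1% of all genes at 5 TPM. Adam17 encodes the protease that frees TNF from the membrane, and stood at 98.6 TPM in BMDM and 33.2 in MEF, with a log2 ratio of -1.54. Transcripts of its partner proteins differed in opposite directions: Rhbdf2 (iRhom2) stood at 46.5 TPM in BMDM and 5.41 in MEF, and Rhbdf1 (iRhom1) at 2.03 and 57.4. The called genes also include Timp3, whose product inhibits ADAM17, at 628 TPM in MEF and 1.23 in BMDM.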

How the data were processed

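RNA of 1 fibroblast and 1 macrophage culture was sequenced in paired reads of 76 bp after a stranded poly(A) library kit, per the labels' protocols. The submitters' processing notes name kallisto 0.43.1 as a tool and GRCm38 as a build. The deposited values are TPM by their range and column totals. The strand setting, the transcript set and how its members were joined into genes were not given in the sources used here. Depth is unknown, since TPM keep none.

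From these, rows of the same symbol were summed (no member had more than 1 row) and log2 ratios of TPM plus 1 were taken, with a call at a log2 ratio of 2 or more and 5 TPM. No test was possible with a single library of each cell type. Coordinates, exon overlap and shared words of 31 bases came from GENCODE M21 (GRCm38), and promoters from RefSeq. The code of the call rule was tested on simulated data without noise, which checks its arithmetic and not the precision of the calls. Python 3.11.15, pandas 2.3.3 and numpy 2.4.6 were used.

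The members, lists, pairs and rules were chosen with earlier results of these data known. Named genes are all members at 1 TPM or more, the called genes of each pathway list or its 2 highest, and the sort genes; other pathway and marker genes were named after their values were seen. Alternatives were an added 0.1 or 5, no minimum or one of 1 or 10 TPM, a 2-fold limit, median-of-ratios scaling, the highest single row, subtraction of the other cell type's marker share and, chosen after seeing the data, adding Tnfsfm13 to its neighbours.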

Additional observations from a re-analysis of the deposited data

How the results depend on the processing

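No member changed direction under the alternatives run. A changed constant, minimum or limit cannot reverse a ratio, and no member had more than 1 row. Adding Tnfsfm13, itself higher in BMDM, could not either. Direction was thus open to change only under median-of-ratios scaling and marker subtraction. Of the 24 called members, 13 were called under each alternative run on them. All members were run under 9 alternatives, and Tnfsf12 and Tnfsf13 also with Tnfsfm13 added. With 5 added in place of 1, called members fell to 13, all genes to 1548, ligands to 0 in fibroblasts and 3 in macrophages, receptors to 3 and 2, TRAF genes to 1 and pathway genes to 3, and the ligand median became -1.12. With 0.1 added the ligand median became -2.96. With a minimum of 10 TPM, ligands higher in fibroblasts and macrophages were 0 and 4 and TRAF genes 1. Expressed pairs were then 1 from fibroblast to macrophage, 1 within fibroblasts and 4 within macrophages. With a minimum of 1 TPM, 9 pairs ran from macrophage to fibroblast. A 2-fold limit gave 7 receptors higher in macrophages, 8 TNFAIP and TNIP genes, 22 pathway genes and 4335 genes in all. Of the shifts in counts, those under another minimum, limit or added constant follow from the arithmetic of the rule, since a larger constant shrinks each ratio. For the others the cause was not tested. Median-of-ratios scaling removed a median log2 ratio of 0.18 toward fibroblasts over genes at 5 TPM in both libraries. It ended the call of Fas and added Tnfrsf14 and Tnip1. Subtracting the marker share of the other cell type and taking the highest single row changed no member's call. No depth, replicate or error is available, so values near 5 TPM or near 4-fold have no known precision.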

Other observations

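Of 2 further receptor relatives outside the symbol rule, neither was called. Tnfsfm13, also outside the rule, was called toward macrophages, as described above. Relt, a TNF receptor relative, stood at 10.8 TPM in MEF and 5.06 in BMDM. Ngfr, the low-affinity neurotrophin receptor, stood at 0.248 and 0.171 TPM.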
